A study of Hydra vulgaris with 40 samples.

Results

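The genes described here are 125 gene models of the freshwater polyp Hydra vulgaris that were detected broadly in the adult animal but were low in the tentacles. They were chosen by measured values in adult tissues. For each gene, the mean of both samples of a tissue plus 1 was ranked over 5 tissues, and a gene was taken when tentacles were lowest, when the next-lowest tissue was at least 4 times tentacles, when the highest tissue was under 1.5 times the second and the second under 2 times the third, and when the mean of the 4 other tissues was at least 10. The rule allowed up to 200 genes, and 125 of the 17438 listed genes passed, so all of them are members. Of the 17438 genes, 7176 had a mean of at least 10 in the 4 other tissues, and these serve below as the background of similar level.

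RNA was sequenced from 40 samples of H. vulgaris polyps, with 2 samples in each of 20 groups, and the labels give no genetic change or drug for any group. The adult tissues were tentacles and, as the 4 others, foot, hypostome, budding zone and body column. The budding course held head regions cut from buds at stages 1, 3, 4, 5, 6, 7, 8 and 10. The regeneration course held 7 times, from 0 h through 2, 4, 6, 12 and 24 h to 48 h after a cut below the head, with 1 animal per sample. The tissue taken was the part of the body column next to the cut, regions 2 and 3 of the body in the labels. The labels name neither a strain nor an age of the polyps.

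A Hydra polyp is a tube with a mouth-bearing hypostome ringed by tentacles at one end and an adhesive foot at the other. Epithelial cells divide in the body column and are displaced toward both ends and into buds. Tentacle ectoderm consists mostly of battery cells, which are epithelial cells that no longer divide and that house mounted stinging cells, and old tentacle cells are shed at the tips. The interstitial stem cells, the dividing precursors of stinging cells and the gland cells of the gut lie mostly in the body column. After decapitation the cut end builds a new hypostome and new tentacles, and a bud builds a head on its own before it detaches.

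The deposited values were on a scale near TPM, a share of all transcripts, but had been adjusted further. Sums per sample lay between 997030 and 1014380, and in 18 of the 20 groups both samples held exactly the same set of values once sorted. The exceptions were bud stages 6 and 7, in which replicate 1 of stage 6 shared its sorted values with replicate 2 of stage 7, and replicate 2 of stage 6 with replicate 1 of stage 7. In this respect these 4 samples go against their labels, and budding results are given below with and without them. The files give no reads per gene, so precision from depth cannot be stated, and p-values may be too small where the samples of a group share one distribution. The gene models carry no names in the files, and none of their identifiers was found among the 28925 genes of the RefSeq table, so members are given by identifier, no role can be given for any of them, and the tissues could not be checked against marker genes.

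In the adult animal the median member had a value of 0.64 and 0.82 in the tentacle samples. It had 23.69 and 23.38 in hypostome, 31.92 and 28.92 in body column, 31.48 and 29.87 in budding zone, and 23.52 and 21.99 in foot. Both tentacle samples lay below all 8 other adult samples for each of the 125 members, which the rule made likely. On the scale of log2(value + 1), the median difference of tentacles from the mean of the 4 other tissues was −3.57 among members, against −0.11 among genes of similar level and 0.04 among all genes. As the rule used these samples, these levels are a description and were not tested. In bulk samples, fewer cells that express a gene and less of its RNA per cell cannot be told apart.

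**Figure D1:**
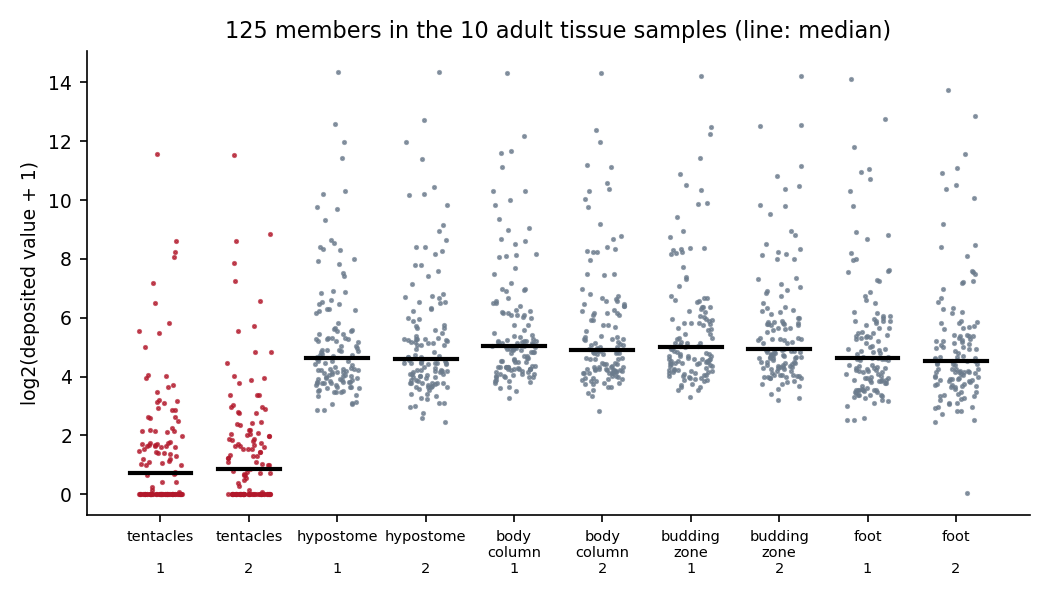
Values of the 125 members in each of the 10 adult samples, as log2(deposited value + 1), with 1 point per gene and the median as a line; the numbers under the tissues are replicates. The tentacle medians correspond to values of 0.64 and 0.82, and the medians of the other samples to values between 21.99 and 31.92.

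The members ranged widely in how low they were in tentacles. The ratio of the next-lowest tissue to tentacles, both plus 1, had a median of 8.28 with quartiles of 5.31 and 13.0. In tentacles, 46 members were listed at 0 in both samples, 12 were listed at 0 in 1 sample and 67 were above 0 in both. Among the 7176 genes of similar level, 222 (3.09%) were listed at 0 in both tentacle samples, and 46 of these 222 were members. Such zeros were listed in the other tissues too, among genes with a mean of at least 10 in the 4 tissues other than the one counted. There were 176 of 7635 in budding zone, 171 of 7686 in body column, 124 of 7520 in hypostome and 115 of 7629 in foot. Members made up 0.460% and 0.466% of the sum of all values in the tentacle samples, against 3.74% to 4.78% in the 8 other adult samples. Without the most abundant member, Sc4wPfr_954.g27119, these shares were 0.158% and 0.171%, against 2.36% to 2.84%.

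Sc4wPfr_954.g27095 had the largest ratio. It was listed at 0 in both tentacle samples, with values of 2754 and 2723 in hypostome, 3236 and 2331 in body column, 2777 and 2264 in budding zone, and 2128 and 1319 in foot. Tentacles were thus the only adult tissue in which this abundant transcript was listed at 0. At the other end, Sc4wPfr_66.g19007 was the last gene inside the limit, with a ratio of 4.003 and mean values of 3.93 in tentacles and 18.7 in foot. Sc4wPfr_118.g25126 was the first gene outside, with a ratio of 3.994 and mean values of 10.8 in tentacles and 45.97 in body column. The most abundant member, Sc4wPfr_954.g27119, was picked after its values were seen. It had 3034 and 2964 in tentacles, far above most members elsewhere, against a mean of 19040 in the 4 other tissues.

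Outside tentacles the highest mean was in budding zone for 46 members (36.8%), in body column for 43 (34.4%), in hypostome for 24 (19.2%) and in foot for 12 (9.6%). The 2600 genes that met the other criteria of the rule, with tentacles lowest by under 4 times, had nearly the same shares, with 33.6% highest in budding zone, 37.0% in body column, 23.7% in hypostome and 5.77% in foot. The lowest of the 4 other tissues was foot for 70 members (56%), against 52.5% of these genes, hypostome for 43, body column for 9 and budding zone for 3. Applied to 1 replicate at a time, the rule gave 133 genes on replicate 1 and 124 genes on replicate 2. Of the 133, 103 also had tentacles lowest and 4 times below the next tissue in replicate 2. Of the 124, 95 met both criteria in replicate 1. The rule used both replicates, and these share sorted values within each adult tissue. These counts are therefore a description and no independent check.

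The members were spread over 102 scaffolds of the genome assembly, and some lay close together. The scaffold and model number are part of each identifier, so neighbours could be found without coordinates. On 17 scaffolds there were at least 2 members, together 40 genes, and 24 members formed 17 pairs with model numbers at most 5 apart. Of the 522 distinct listed genes within 5 model numbers of another gene that was a member, 24 (4.60%) were themselves members, against 0.717% of all listed genes. The largest group, 5 members on Sc4wPfr_594, had mean values in the 4 other tissues between 20.5 for Sc4wPfr_594.g3262 and 307.1 for Sc4wPfr_594.g3270. Neighbouring models may be near-identical copies whose reads were divided between them, so values of single genes in such pairs are uncertain.

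In head regeneration far more members fell than rose, and their median dropped between 6 and 12 h. The regeneration slope, a linear trend of log2(value + 1) over the order of the 7 times fitted with limma across 17287 genes, fell at an adjusted p under 0.05 in 54 members (43.2%) and rose in 7 (5.6%). In the same test 16.9% of all genes fell and 10% rose, and among genes of similar level 27.7% fell and 12.1% rose. The median slope was −0.14 log2 units per time step among members, against −0.03 among genes of similar level and −0.01 among all genes. With median-ratio scaling the members counted were 44 that fell and 9 that rose, although the split over all genes moved to 1840 that fell and 2218 that rose, against 2927 and 1734 with the values as deposited. Without either sample of 48 h, fewer of all genes were called in each direction, and fewer members rose without replicate 2. The median slope of members was −0.12 without replicate 1 of 48 h and −0.15 without replicate 2, against −0.01 among all genes in both fits.

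The median member value was 36.65 and 37.66 at 0 h, 35.25 and 35.41 at 2 h, 34.11 and 29.93 at 4 h, and 36.61 and 32.35 at 6 h. It was 23.24 and 20.86 at 12 h, 24.28 and 25.57 at 24 h, and 20.29 and 24.87 at 48 h. The 6 samples from 12 h onward thus all lay below the 8 earlier ones. Relative to 0 h on the log2 scale, the sample medians of the gene-wise differences lay between −0.26 and −0.04 from 2 to 6 h and between −0.84 and −0.54 from 12 to 48 h. Genes of similar level showed medians between −0.19 and −0.14 in the later 6 samples.

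**Figure D2:**
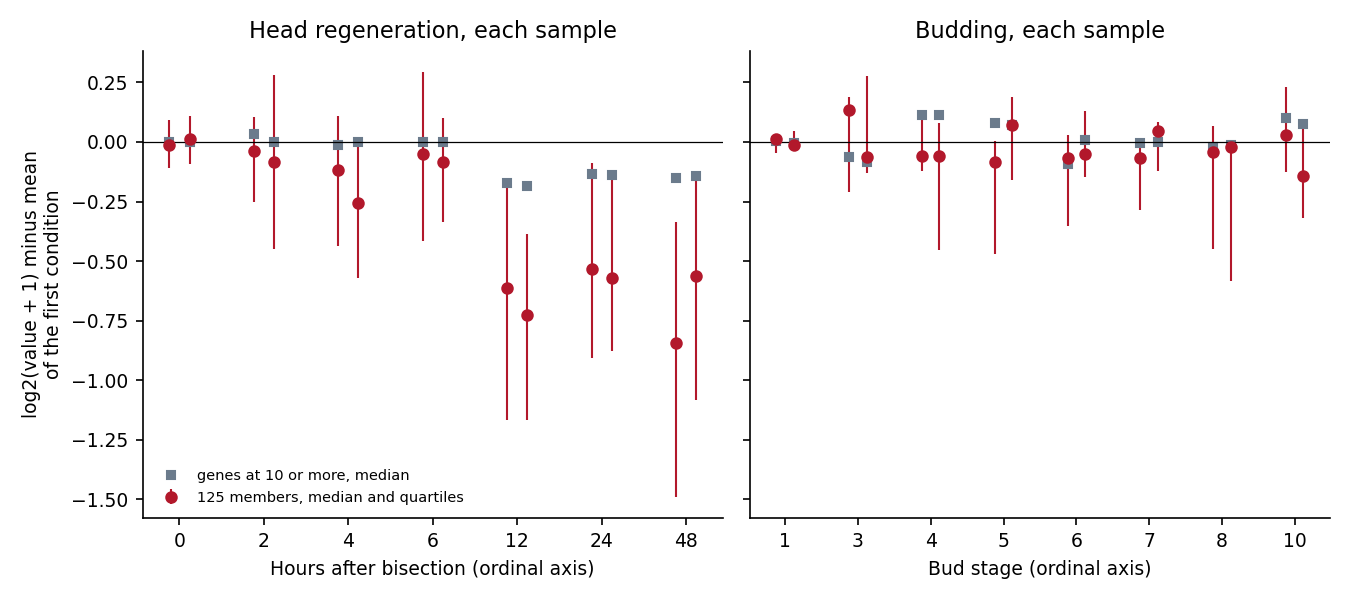
Difference in log2(value + 1) from the mean of the first condition, with 1 circle per sample for the median of the 125 members, bars for their quartiles, and squares for the median of the 7176 genes of similar level. In regeneration the member medians dropped below −0.5 from 12 h on, and in budding they stayed between −0.14 and 0.13.

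Counted by samples that do not overlap, 41 members (32.8%) had both samples of 2 h below both of 0 h, against 16.4% of all genes and 15.9% of genes of similar level. The count was 44 members (35.2%) at 4 h, against 21.1% of all genes and 19.4% of genes of similar level, and 41 at 6 h, against 22.2% and 23.8%. In the opposite direction, 18 members were higher at 2 h, 8 at 4 h and 18 at 6 h than at 0 h. Shares of all genes were not counted in this direction, so whether these counts are few or many cannot be said. At 12 h 93 members (74.4%) were lower, against 35.9% of all genes and 49.2% of genes of similar level. At 24 h the count was 83 (66.4%), against 34.5% and 46.1%, and at 48 h it was 88 (70.4%), against 37.2% and 49.0%. Higher than at 0 h were 11, 15 and 11 members at 12, 24 and 48 h, likewise without a counted background. These counts share the samples of 0 h and are not independent of each other. Between successive times, 81 members (64.8%) were lower at 12 h than at 6 h, against 33.1% of all genes and 46.8% of genes of similar level. At 24 h 56 members (44.8%) were higher than at 12 h, against 23.2% and 29.7%. At 48 h 50 members (40%) were lower than at 24 h, against 28% and 33.0%, which is nearer to the background than the other steps.

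The lowest mean of the course fell at 48 h for 47 members (37.6%, against 27.1% of genes of similar level). It fell at 12 h for 43 (34.4%, against 21.8%) and at another time for the remaining ones. The last 3 times held the lowest mean of 99 members (79.2%), against 63.3% of genes of similar level. Late minima were thus the majority in both. The highest mean fell at 0 h for 40 members (32%, against 12.6% of genes of similar level). It fell at 2 h for 30 (24%, against 21.0%) and at 6 h for 20 (16%, against 12.0%). The last 3 times held the highest mean of 24 members (19.2%), against 39.6% of genes of similar level.

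The contrasts of single times gave the same direction. At 48 h against 0 h, 55 members fell and 2 rose by limma at an adjusted p under 0.05, against 11.1% of all genes that fell and 9.84% that rose, and the median log2 change was −0.78 among members and −0.06 among all genes. Among genes of similar level 18.9% fell and 10.8% rose, with a median of −0.15. The 2 that rose were Sc4wPfr_615.1.g17677 and Sc4wPfr_227.g25773, the second of which is named after its values were seen. At 12 h against 0 h, 49 members fell and 0 rose (5 at an unadjusted p under 0.05), against 10.3% of all genes that fell and 6.51% that rose, and the median log2 change was −0.65 among members and −0.07 among all genes. Among genes of similar level 16.8% fell and 6.95% rose, with a median of −0.19. Both contrasts lost calls when a sample was left out. The 55 became 35 and 27 without replicates 1 and 2 of 0 h and 29 without replicate 1 of 48 h, the 2 that rose became 1 without either sample of 48 h, and the 49 became 32 and 26 without replicates 1 and 2 of 0 h. The count of 0 at 12 h became 1 without replicate 2 of 0 h or replicate 1 of 12 h, and 2 without either sample of 2 h. The background lost calls too, with 510 genes that fell at 48 h and 496 at 12 h without replicate 2 of 0 h. With median-ratio scaling the split of all genes moved to 1089 that fell and 2019 that rose at 48 h, against 1913 and 1701 as deposited, and to 949 and 1417 at 12 h, against 1778 and 1125.

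The tentacle samples that the rule used are low by choice, so that levels in regeneration can only be set beside them as a description. Set beside the mean of the 4 other adult tissues, the median member differed by 0.52 at 0 h on the log2 scale. It differed by −0.31 at 12 h, −0.05 at 24 h and −0.23 at 48 h. Genes of similar level differed by 0.08 at 0 h, −0.09 at 12 h, −0.06 at 24 h and −0.03 at 48 h. Member medians of the single adult samples outside tentacles lay between −0.33 in foot and 0.28 in body column. Tentacles stood at −3.57 on the same scale. Members were listed at 0 in at most 3 of 125 cases in any regeneration sample, and 6 members were listed at 0 in at least 1 of them.

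The steepest fall was shown by neighbouring gene models. Sc4wPfr_139.g156 had values of 35.9 and 31.5 at 0 h, 27.2 and 26.3 at 2 h, 32.5 and 28.9 at 4 h, 42.9 and 22.4 at 6 h, 23.7 and 18.8 at 12 h, 7.87 and 11.1 at 24 h, and 0 and 3.25 at 48 h. The samples of 48 h lay below all others, and those of 24 h were the next lowest. Its slope was −0.56 ± 0.12 log2 units per time step (SE, limma adjusted p = 0.00586). Sc4wPfr_139.g154 had 26.4 and 23.3 at 0 h, 12.9 and 14.6 at 12 h, 7.11 and 8.14 at 24 h, and 0 and 3.39 at 48 h, with a slope of −0.51 ± 0.11 (SE, limma adjusted p = 0.00473). Over the 14 regeneration samples the log2 values of the pair had a Pearson r of 0.994, and no listed gene lies between them, so it is uncertain whether their reads could be separated. Both were listed at 0 in both tentacle samples and were highest in foot, with mean values of 46.03 and 34.5.

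The steepest rise was that of Sc4wPfr_615.1.g17677. It had 836 and 822 at 0 h, 607 and 391 at 2 h, 434 and 515 at 4 h, 756 and 860 at 6 h, 1338 and 1170 at 12 h, 1709 and 1477 at 24 h, and 2017 and 2623 at 48 h. All 6 samples from 12 h onward lay above the 8 earlier ones, the reverse of the median member. The slope was 0.33 ± 0.06 (SE, limma adjusted p = 0.00329). In the adult animal it had 265 and 229.9 in tentacles, against 2234 in each body column sample and 1182 and 1194 in hypostome.

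Sc4wPfr_897.g14204 was the second in slope among those that rose, with 0.26 ± 0.07 (SE, limma adjusted p = 0.0224). It had 49.98 and 15.9 at 0 h, 68.9 and 18.8 at 12 h, 81.3 and 66.3 at 24 h, and 64.1 and 71.1 at 48 h, so that samples of one time differed by more than the trend at 0 and 12 h. The call was lost without replicate 2 of 0 h (adjusted p = 0.0669) and without replicate 2 of 48 h (adjusted p = 0.0526), and its adjusted p ranged between 0.00503 and 0.0669 over 20 alternatives.

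**Figure D3:**
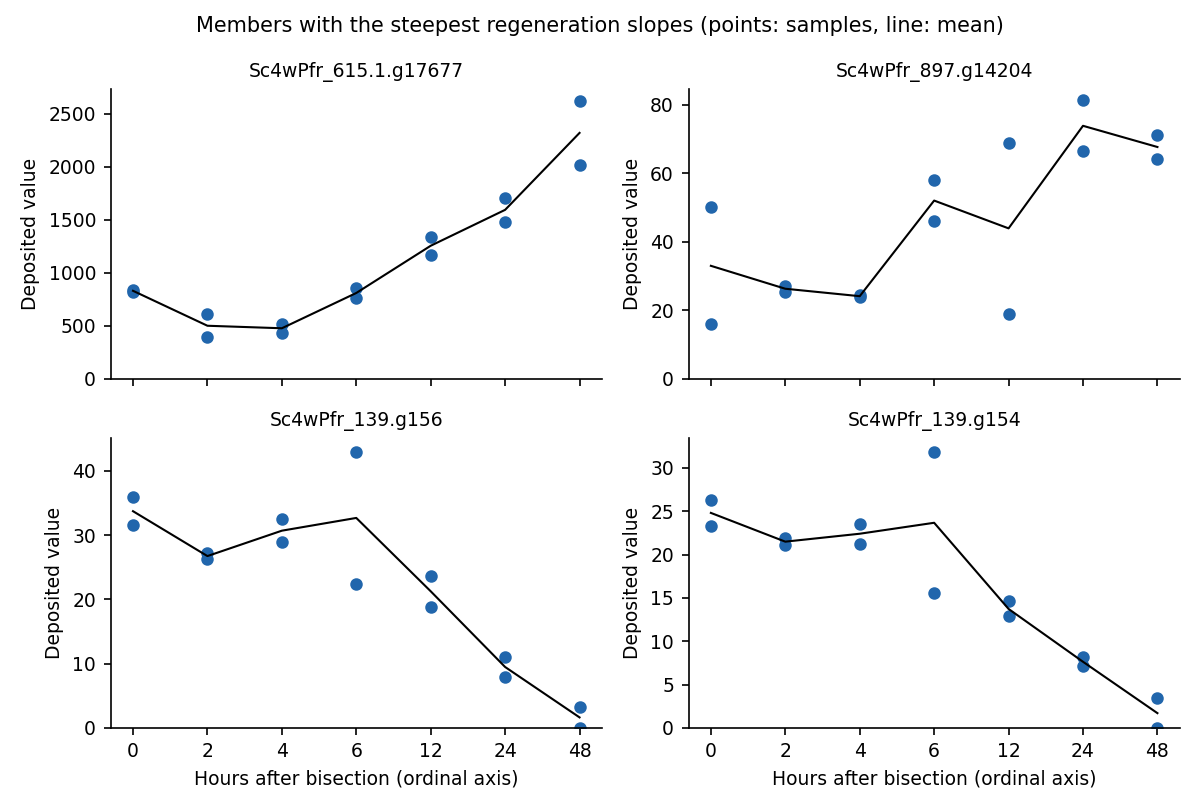
Deposited values of the 2 members with the steepest rise (upper row) and the 2 with the steepest fall (lower row) over 7 times of regeneration, with 1 point per sample and a line through the means of 2 samples. Sc4wPfr_615.1.g17677 ended at 2017 and 2623, and both members of the lower row ended at or below 3.39.

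By slope, 22 of the 46 members highest in budding zone fell, as did 18 of 43 highest in body column, 10 of 24 highest in hypostome and 4 of 12 highest in foot. Of the 46 members listed at 0 in both tentacle samples 22 fell, and of the 79 others 32 fell. Of the 7 that rose, 6 belonged to the 79 and 5 were among the 23 members with a mean of at least 100 in the 4 other tissues. Across the 125 members, the difference between tentacles and the other tissues had a Pearson r of 0.07 and a Spearman rho of 0.08 with the regeneration slope, and the difference between hypostome and body column had an r below 0.01 in size. These are descriptions over genes of the same libraries, which are not independent replicates.

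Sc4wPfr_954.g27095, with the largest ratio in the adult, had 4150 and 4094 at 0 h, 959 and 1370 at 12 h, 3318 and 3171 at 24 h, and 568 and 1899 at 48 h. Its samples of 12 h and 48 h lay below those of all other times, and its slope was −0.25 ± 0.09 (SE, limma adjusted p = 0.0480). Its neighbour in model number, Sc4wPfr_954.g27096, also a member, did not follow it, with a Pearson r of 0.04 over the 14 samples and a slope of 0.24 ± 0.21 (SE, limma adjusted p = 0.418). On Sc4wPfr_594, 3 of the 5 members fell by slope, and Sc4wPfr_594.g3271 had the steepest slope there, −0.48 ± 0.11 (SE, limma adjusted p = 0.00658). Over the 17 close pairs, which share members on Sc4wPfr_594 and Sc4wPfr_1734, the Pearson r between the partners' log2 values in regeneration ranged from −0.56 to 0.99 with a median of 0.75, and in 5 pairs both partners fell.

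In budding no member passed the test of the slope. The fit over the order of the 8 stages gave 0 members that fell and 0 that rose by limma at an adjusted p under 0.05, with 10 and 3 at an unadjusted p under 0.05 and 0.0606 as the lowest adjusted p. Over all genes 0.304% fell and 6.22% rose, and among genes of similar level 0.404% fell and 8.03% rose. This background itself rests on single samples, since no gene at all was called, 0 that fell and 0 that rose, without either sample of stage 1 or either sample of stage 8. The median slope was −0.01 log2 units per stage step among members and 0.01 among all genes. Without the samples of stages 6 and 7, whose sorted values were crossed, 3 members fell and 0 rose. In that fit 329 of all 17438 genes fell and 1981 rose, so that the background moved as well. With quantile normalization 8 members fell, while the split over all genes moved to 1587 that fell and 978 that rose, against 53 and 1085 as deposited. Leaving out single samples gave up to 2 members that fell, without replicate 1 of stage 6, and 1 without replicate 1 of stage 3, replicate 2 of stage 7 or replicate 2 of stage 10, and 1 that rose without replicate 2 of stage 3 or replicate 2 of stage 10.

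At bud stage 10 against stage 1, 1 member rose and 0 fell by limma (1 fell at an unadjusted p under 0.05), against 7.21% of all genes that rose and 0.447% that fell. The 1257 genes that rose became 353 and 308 without replicates 1 and 2 of stage 1 and 281 without replicate 2 of stage 10. The member was Sc4wPfr_514.g14435, named after its values were seen. It had 25.9 and 22.9 at stage 10, against 11.3 and 14.95 at stage 1, so that the samples did not overlap, and its log2 change was 0.86 ± 0.18 (SE, limma adjusted p = 0.0224). The call was lost without replicate 1 of stage 1 or either sample of stage 10, and 1 member fell without replicate 2 of stage 10. Quantile normalization also removed it, with a median log2 change of −0.30 among members and −0.19 among all genes, against −0.05 and 0.05 as deposited, and a split over all genes of 545 that rose and 136 that fell, against 1257 and 78.

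The bud values of many members held little variation. Over the 16 bud samples the coefficient of variation (CV, the SD as a percent of the mean) was under 10% in 41 members (32.8%), against 5.59% of genes of similar level and 9.97% of all genes. Over the 14 regeneration samples it was under 10% in 0 members, and its lowest value there was 12.3%. No background share is given for this count, so whether it is low cannot be said. The 41 members with a bud CV under 10% were 27 of the 46 listed at 0 in both tentacle samples and 14 of the 79 others. Among the 41 were Sc4wPfr_139.g156 with values between 18.6 and 23.1, Sc4wPfr_139.g154 with values between 14.2 and 17.5, and Sc4wPfr_897.g14204 with values between 45.9 and 57.1. The 41 also held Sc4wPfr_954.g27095, which had the largest ratio, with a bud CV of 6.14%. The most abundant member, Sc4wPfr_954.g27119, was among them too, with 6.07%.

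These 41 members also moved in step over the bud samples. Their 820 pairs had a median Pearson r of 0.89 over the 16 samples, and 48.0% of the pairs exceeded 0.9, against a median of 0.15 and 0.115% of the 3486 pairs among the 84 others. In regeneration the same 41 had a median r of 0.34, against 0.28 among the 84. Their median deviation from the bud mean was largest in the first sample of stage 3, at 0.15 log2 units, and lowest in the second sample of stage 10, at −0.13. Of the 41, 36 had their highest stage mean at stage 3, against 23 of the 84. Together these were 59 members (47.2%), against 7.78% of genes of similar level, so the peak at stage 3 was not confined to the 41. A course of budding specific to each gene can therefore hardly be read from these 41 members, and the part of the processing in this pattern was not tested.

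**Figure D4:**
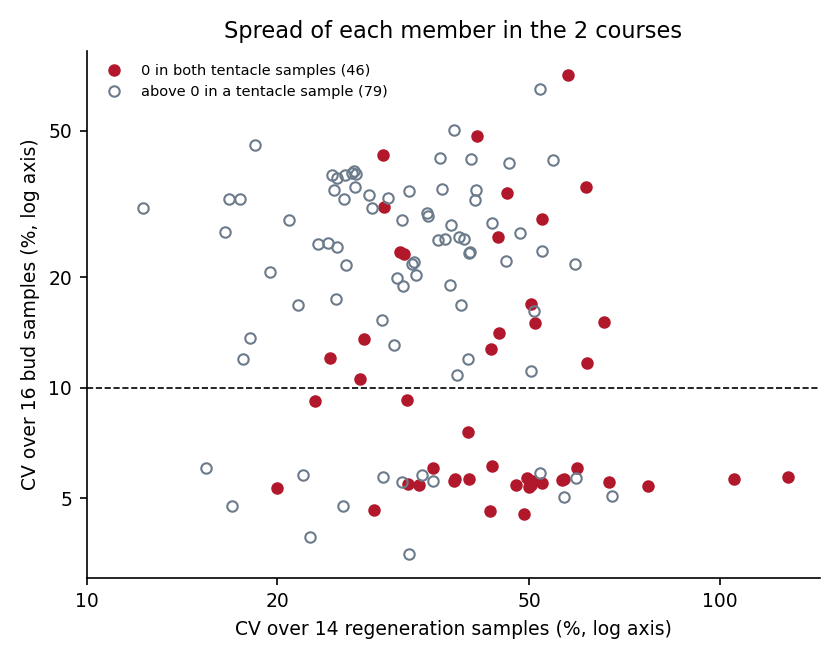
Coefficient of variation of each member over 14 regeneration samples (horizontal, percent, log axis) and over 16 bud samples (vertical, percent, log axis), with filled circles for the 46 members listed at 0 in both tentacle samples and open circles for the 79 others; the dashed line marks 10%. Below the line lie 41 members, 27 of them filled, in a band that spans a wide range of variation in regeneration.

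The 84 members with a bud CV of at least 10% gave 0 that fell and 0 that rose over budding as well, and 34 of them fell and 6 rose in regeneration. The ratio of the mean over bud samples to the mean over the 24 other samples lay between 0.880 and 1.04 in all 125 members, so that levels in buds were not compared with those in other tissues.

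The difference between the courses was tested directly, as the budding slope minus the regeneration slope with each course scaled from 0 at its first to 1 at its last condition, in the 30 samples of both. The slope was higher in budding for 29 members and lower for 5, against 7.35% of all genes with a higher and 2.51% with a lower slope, and the median difference was 0.73 log2 units among members and 0.19 among all genes. Among genes of similar level the shares were 10.9% and 3.07%, with a median of 0.28. The 5 were Sc4wPfr_615.1.g17677, Sc4wPfr_897.g14204, Sc4wPfr_232.g4545, Sc4wPfr_191.g12120 and Sc4wPfr_191.g12122, the last 3 of which are named after their values were seen. The count of 29 and 5 was the same without bud stages 6 and 7. Over all genes, the 1281 with a higher slope in budding became 1974 without those stages and 772 without replicate 2 of stage 1. Among the 84 members with a bud CV of at least 10% it was 16 and 4.

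Scaling changed the count of higher slopes. It was 16 with quantile normalization and 17 with median-ratio scaling, with 6 lower slopes under each, while the median difference moved to 0.41 and 0.45 among members and to 0.01 and −0.02 among all genes. The split over all genes moved likewise, to 529 higher and 619 lower with quantile normalization and to 507 and 755 with median-ratio scaling, against 1281 and 437 as deposited. Across the 125 members, the slopes of the courses had a Pearson r of 0.13 and a Spearman rho of 0.13 with each other.

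**Figure D5:**
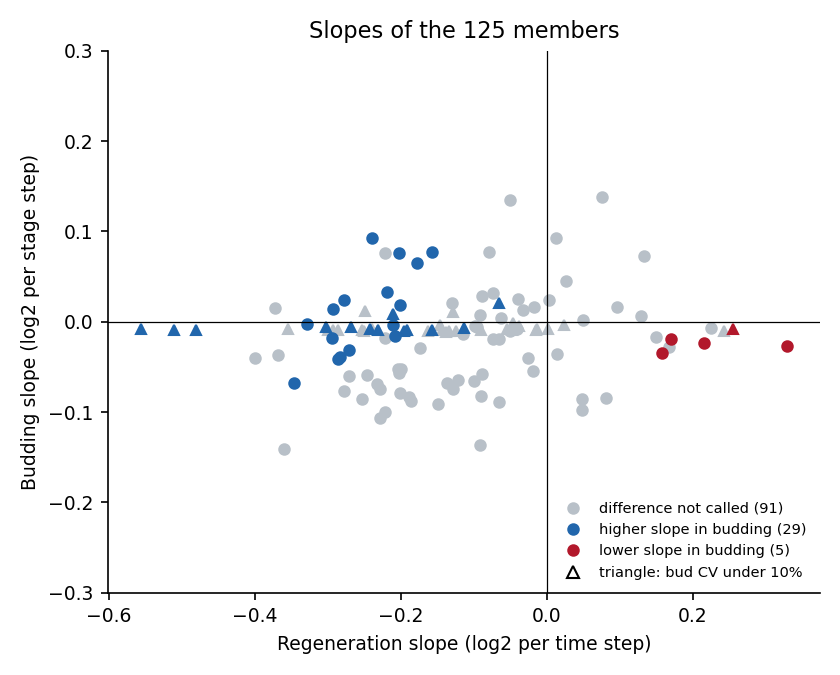
Regeneration slope (horizontal, log2 units per time step) and budding slope (vertical, log2 units per stage step) of the 125 members, coloured by the test of the difference between the courses (blue, 29 with a higher slope in budding; red, 5 with a lower one; grey, 91 not called), with triangles for members with a bud CV under 10%. The points spread from −0.56 to 0.33 along the regeneration axis and from −0.14 to 0.14 along the budding axis, where the triangles lie close to 0.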

How the data were processed

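The authors trimmed paired-end reads with Trimmomatic 0.35, mapped them with Bowtie 1.2 and estimated expression with RSEM 1.2.31 (per the submitters' processing notes), and their methods also name ComBat and qsmooth, which remove batch effects and smooth quantiles. The batches are not given in the sources used here. The deposited values are therefore treated as an adjusted signal on a scale near TPM. Tests planned for TPM were kept.

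Members were chosen on the adult tissues, and the members, lists and tests were chosen with earlier results of these data known. Genes above 0 in at least 2 fitted samples were analysed as log2(value + 1) with limma 3.58.1 (lmFit, eBayes with a trend) in R 4.3.3, two-sided, with Benjamini-Hochberg adjustment over all genes fitted and a threshold of 0.05. Fold changes on this scale understate changes of low genes. Slopes used the order of stages or times, and contrasts used a mean per group with the spread shared over the course. All 125 members passed the filter in both courses. The labels number the 2 samples of a group as replicates. In the contrasts, p-values measure only the spread between these samples. In the slopes and the slope difference, the spread also includes departures of the group means from a straight line.

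Alternatives were no filter or only genes at 1 or more in at least 2 samples, a pseudocount of 0.1, quantile normalization, median-ratio scaling, a replicate block, trends over stage number or over hours, members chosen on 1 replicate, and leaving out each sample. Leaving out bud stages 6 and 7 and members with a bud CV under 10% were chosen after seeing the data. Named genes were the 2 members with the largest called slope in each direction of each course, the member with the largest ratio, and the genes next to the limit. The fits were tested on simulated data with independent noise. Real samples of a group share sorted values, so that simulation cannot show whether p-values are too small here. Calculations used Python 3.11.15, pandas 2.3.3, numpy 2.4.6 and scipy 1.17.1, and figures used matplotlib 3.10.9.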

Additional observations from a re-analysis of the deposited data

Results flagged for a closer look

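The courses differed in the test of the slopes for several results. With each course scaled to a length of 1, limma called 29 members with a higher slope in budding than in regeneration and 5 with a lower one. Among the named genes, the budding slope exceeded the regeneration slope by 3.28 ± 0.71 log2 units in Sc4wPfr_139.g156 (SE, limma adjusted p = 0.00571) and by 3.00 ± 0.62 in Sc4wPfr_139.g154 (SE, limma adjusted p = 0.00427). The difference was −2.16 ± 0.44 in Sc4wPfr_615.1.g17677 (SE, limma adjusted p = 0.00355) and −1.59 ± 0.45 in Sc4wPfr_897.g14204 (SE, limma adjusted p = 0.0233). Without replicate 2 of 0 h the last of these had an adjusted p of 0.0592, within a range of 0.00249 to 0.0592 over 37 alternatives. Sc4wPfr_139.g156, Sc4wPfr_139.g154 and Sc4wPfr_897.g14204 had a bud CV under 10%, so that their differences come almost wholly from the regeneration slope.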

How the results depend on the processing

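The number of genes that pass the rule was 66 with a limit of 8 in place of 4, and between 84 and 156 under 6 other settings of the rule. Quantile normalization gave 8 members that fell over budding, 0 that rose at stage 10 against stage 1, and 16 with a higher slope in budding. Median-ratio scaling gave 17 with a higher slope in budding and 2 that rose at 12 h against 0 h. Stage numbers in place of the order gave 1 member that rose over budding. Members chosen on replicate 1 gave 1 that rose at 12 h, and members chosen on replicate 2 gave 2 that rose at 12 h, 4 that rose at 48 h and 0 that rose at stage 10. Without bud stages 6 and 7, 3 members fell over budding, as did 329 of all 17438 genes. With members of a bud CV of at least 10%, 16 had a higher slope in budding, a list of 84 genes. Of 119 counts under alternatives other than leaving out a sample, 105 stayed within 1.5 times the main count, as did direction and call of the 4 named genes in 80 of 80 such fits. The 105 include counts of 0 that stayed at 0, which say little about stability. The causes were not tested.

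Leaving out each sample gave 40 to 54 members that fell and 4 to 8 that rose by regeneration slope, 27 to 61 and 1 to 3 at 48 h, 26 to 54 and 0 to 2 at 12 h, 0 to 2 and 0 to 1 by budding slope, 0 to 1 and 0 to 1 at stage 10, and 22 to 35 with a higher and 4 to 5 with a lower slope in budding. A lone sample left in a group was assumed to vary like the others.

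With a replicate block, 5 members rose and 53 fell at 48 h, and 50 fell and 8 rose by regeneration slope. At 12 h 51 fell and 0 rose, and the other counts of members were unchanged. Of 17287 genes, 1636 rose and 1776 fell at 48 h with the block. By regeneration slope 1617 of them rose and 2762 fell, and at 12 h 1086 rose and 1687 fell. Whether the numbers pair the samples is unknown. Deviations of same-numbered samples correlated above 0.1 in 5 of 28 pairs of bud stages and 5 of 21 pairs of regeneration times. The median r was −0.01 and 0.01, and the highest was 0.47 and 0.40. As the deposited values had already been adjusted, these correlations cannot show whether the samples were paired. Depth is unknown, which limits what low values can show.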
